A study of Mus musculus with 20 samples.

Results

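The genes described here are 10 products of the uterine glands and the epithelium around them, namely Prss28, Prss29, Cxcl15, Spink1, Ovgp1, Lrp2, Muc1, Muc4, Muc16 and Calb1. They were taken by gene symbol from the deposited expression table, which lists 45777 genes, and all 10 were above 0 TPM in every library. TPM is an abundance of transcripts corrected for their length and scaled to the same total in each library.

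RNA was sequenced from the uteri of 20 mated B6D2F1 wild-type female mice aged 8 to 12 weeks, collected at 18:00 on day 3.5 of pregnancy, with 5 mice in each of 4 groups. Control mice received no drug and no cells. Mice of the IF (implantation failure), PBMC and PBMC-hCG groups all received 3 mg/kg RU486 at 9:00 on day 3.5, and RU486 (mifepristone) blocks the progesterone and glucocorticoid receptors. PBMC and PBMC-hCG mice had also been given 50000 peripheral blood mononuclear cells (PBMCs) from non-pregnant mice into each uterine horn on day 1.5, after culture for 24 h. For the PBMC-hCG group the culture held 5 IU/mL hCG (human chorionic gonadotropin). One horn of each mouse was used for RNA. Control and IF mice had no intrauterine injection in these libraries, so the cells and the injection cannot be told apart in any comparison of a PBMC group with either of them.

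Uterine glands are tubes of epithelium that open into the uterine lumen and release proteases, protease inhibitors, chemokines and leukemia inhibitory factor (Lif) around the time of implantation. FOXA2 is the transcription factor that marks gland cells in the adult mouse uterus, and much of the secretory output of the glands is under control of estrogen and progesterone. Membrane mucins coat the luminal surface, and the endocytic receptor LRP2 and the calcium-binding protein calbindin lie in epithelial cells.

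Prss28 and Prss29 encode the implantation serine proteases, which glands secrete as a pair. The genes are neighbours on the same strand of chromosome 17 (RefSeq, GRCm38.p6), with Prss28 (gene 114661) at chr17:25308646-25311876, Prss29 (gene 114662) at chr17:25318654-25322684 and 6777 bases between them. Their promoters are printed because the levels of the pair moved together over mice, and that of Cxcl15 (gene 20309, chr5:90794534-90803067) because its level moved in the opposite direction. Each sequence is the 250 bases before the annotated start, plus strand, at chr17:25308396-25308645, chr17:25318404-25318653 and chr5:90794284-90794533. Capitals mark the longest runs that Prss28 and Prss29 share, and in Cxcl15 the TATAAA motif. Shorter shared runs are not marked.
Prss28: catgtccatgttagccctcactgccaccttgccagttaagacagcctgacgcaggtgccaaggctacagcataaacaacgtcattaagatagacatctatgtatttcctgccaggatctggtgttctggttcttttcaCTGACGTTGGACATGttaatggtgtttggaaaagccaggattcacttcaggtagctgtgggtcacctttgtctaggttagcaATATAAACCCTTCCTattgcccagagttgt
Prss29: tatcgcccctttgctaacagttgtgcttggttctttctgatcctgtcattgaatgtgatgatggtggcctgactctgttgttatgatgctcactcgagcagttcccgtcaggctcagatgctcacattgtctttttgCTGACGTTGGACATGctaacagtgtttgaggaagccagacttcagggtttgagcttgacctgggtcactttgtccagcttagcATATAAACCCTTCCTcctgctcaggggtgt
Cxcl15: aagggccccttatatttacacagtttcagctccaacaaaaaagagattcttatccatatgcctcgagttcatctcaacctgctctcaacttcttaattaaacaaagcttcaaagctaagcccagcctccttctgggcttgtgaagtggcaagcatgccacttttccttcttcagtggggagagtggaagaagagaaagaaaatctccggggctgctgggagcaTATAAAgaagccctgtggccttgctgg
The longest shared runs were CTGACGTTGGACATG, which begins 112 bases before the start in Prss28 and 113 in Prss29, and ATATAAACCCTTCCT, which begins 30 bases before it in both. Both runs are 15 bases long, and aligned over 259 columns the promoters were 62.5% identical. The longest annotated coding transcripts, of 1190 and 1181 bases, were 61.4% identical and shared no identical run longer than 27 bases.

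RefSeq promoters were matched for 8 of the 10 genes, all but Spink1 and Calb1, and motifs were searched on both strands of the 250 bases before the start. TATAAA was in 5 of the 8 (Prss28, Prss29, Cxcl15, Muc1 and Muc4) and in 12.4% of 32851 mouse promoters. TGACGT, the half-site of the cyclic AMP response element, was in Prss28 and Prss29 and in 6.47% of all promoters. The match 111 bases before the start in Prss28 and the one 112 bases before it in Prss29 lie within the first shared run, and a further match in Prss28, 173 bases before the start, lies outside it. The steroid receptor half-site TGTTCT was in Prss28, Ovgp1 and Muc16 and in 16.1% of promoters. None of the 8 windows held an estrogen response element (GGTCA, any 3 bases, TGACC, in 0.0639% of promoters), a progesterone or glucocorticoid response element (AGAACA, any 3 bases, TGTTCT, in 0.00913%), or the letters TGTTTAC or TGTTTGC (FOXA motifs, 3.17% and 4.30%). A match is a description of the letters and not a measured binding site.

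Library totals lay between 999989 and 999999 TPM, so the sequencing depth behind a value cannot be known from them, and counting error is not given. Genes listed above 0 TPM in each of the libraries, 18706 in number, were compared on the log2(TPM + 0.1) scale with limma, in which all 4 groups share a fit, and a gene was called at a Benjamini-Hochberg adjusted p under 0.05 over all tested genes. Control replicate 2 stood apart, with a median correlation of 0.963 with the other control libraries over the other tested genes, against 0.980 to 0.990 for the other 19 libraries within their own groups. Comparisons that turn on this library are given without it. The summed level of 13 epithelial markers was 903 to 1618 TPM in control, 1285 to 1636 in IF, 1284 to 1672 in PBMC and 1345 to 1736 in PBMC-hCG mice, highest of the controls in replicate 2 and lowest in replicate 5. The summed level of 8 ovary markers was 10.9 to 23.9 TPM over all libraries, with 3 of them (Cyp19a1, Hsd3b1 and Zp3) at 0 throughout, that of 8 markers of ciliated oviduct cells was 7.33 to 14.9 TPM, with 1 (Sntn) at 0, and that of 5 embryo markers was 0 to 0.774 TPM, with 1 (Zfp42) at 0. Their part in the results was not tested. In whole tissue, fewer cells of a type and less RNA per cell cannot be told apart.

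The protease pair, Prss28 and Prss29, differed between mice of a group, most of all in control and least in PBMC mice. Prss28 stood at 79.4, 4739, 53.3, 90.3 and 1206 TPM in control replicates 1 to 5 and at 348, 316, 1686, 330 and 941 TPM in IF replicates 1 to 5. In PBMC mice it stood at 157, 284, 362, 395 and 290 TPM, and in PBMC-hCG mice at 522, 329, 337, 1260 and 429 TPM. Control replicates 2 and 5 lay far above the other 3 controls, IF replicates 3 and 5 and PBMC-hCG replicate 4 were the highest of the mice given RU486, and the groups overlapped. Over the 20 mice, the highest level was 89.0 times the lowest.

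Prss29 was the more abundant of the pair in every mouse. It stood at 439, 13969, 329, 514 and 3408 TPM in control mice, at 1011, 1051, 5831, 1277 and 3099 TPM in IF mice, at 474, 1054, 1278, 1372 and 1157 TPM in PBMC mice, and at 1762, 1109, 1009, 4635 and 1212 TPM in PBMC-hCG mice. The same mice were high as for Prss28, and in control replicate 2 it was the 3rd most abundant gene. The ratio of Prss29 to Prss28 was 5.52, 6.19 and 5.70 in control replicates 1, 3 and 4, where both were low, 2.95 and 2.83 in control replicates 2 and 5, and between 2.82 and 3.99 in the 15 mice given RU486. As this split of the control mice was seen in the values themselves, the ratio was not tested.

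Neither protease was called in any comparison. In IF against control the log2 difference was 0.94 for Prss28 (SE 0.94, 95% interval -1.02 to 2.90, adjusted p = 0.522 in limma's test) and 0.56 for Prss29 (SE 0.82, interval -1.16 to 2.28, adjusted p = 0.687). Both intervals span more than a 2-fold fall to a 4-fold rise, and differences within them could not be resolved with these mice. Mean TPM went the other way, at 724 in IF and 1234 in control mice for Prss28 and 2454 and 3732 for Prss29. With all mice the direction thus depended on the scale, and control replicate 2, at 4739 and 13969 TPM, weighed heavily in the control means. Median TPM was higher in IF than in control mice, at 348 against 90.3 for Prss28 and 1277 against 514 for Prss29. With 1 mouse left out at a time, neither log2 difference changed direction in IF against control. The difference ranged from 0.33 to 1.95 for Prss28 and from 0.067 to 1.42 for Prss29, both highest without control replicate 2. No such refit called either gene (adjusted p of at least 0.0557 and 0.118 in limma's test). Prss28 in PBMC-hCG against control ranged from 0.15 to 1.77, again highest without that mouse (adjusted p of at least 0.0605). In some other comparisons the direction changed. In PBMC against control Prss28 differed by -0.05 with all mice and by 0.95 without control replicate 2, and in PBMC-hCG against IF by -0.17 with all mice and by 0.22 without IF replicate 3.

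Spink1, a Kazal-type inhibitor of trypsin-like proteases, was high in most of the mice in which the proteases were high. One exception was PBMC-hCG replicate 1, next to the highest of its group in Prss28 and the lowest in Spink1. Its levels were 906, 5211, 838, 908 and 3109 TPM in the controls, 1516, 1435, 4677, 1013 and 2165 TPM in IF mice, 1016, 1866, 1258, 1956 and 963 TPM in PBMC mice, and 1818, 2557, 2419, 4273 and 2402 TPM in PBMC-hCG mice. The mouse highest in Prss28 was also highest in Spink1 in 4 of 4 groups, and Prss28, Prss29 and Spink1 together held between 0.122% and 2.39% of a library. Spink1 was not called, and its largest difference was 0.94 in PBMC-hCG against PBMC (SE 0.48, interval -0.06 to 1.93, adjusted p = 0.323). Without control replicate 2, Spink1 was called higher in PBMC-hCG than in control (log2 difference 1.10, adjusted p = 0.0459), while with all mice the difference was 0.67 (adjusted p = 0.297).

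Cxcl15, a chemokine of the gland epithelium, was low where the proteases were high. It stood at 19.1, 0.394, 15.4, 19.9 and 2.35 TPM in control replicates 1 to 5 and at 16.6, 11.8, 2.33, 10.6 and 3.43 TPM in IF replicates 1 to 5. In PBMC mice it stood at 19.8, 13.05, 15.5, 13.1 and 9.02 TPM, and in PBMC-hCG mice at 8.21, 17.3, 16.8, 5.08 and 15.3 TPM. Control replicates 2 and 5 and IF replicates 3 and 5 were the lowest of the 20 mice, and the groups overlapped. No comparison of Cxcl15 was called. It differed by 0.27 in IF against control (SE 0.82, interval -1.44 to 1.98, adjusted p = 0.858), and by -0.62 without control replicate 2. With all mice its mean TPM went the other way, at 8.96 in IF and 11.4 in control mice.

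**Figure D1:**
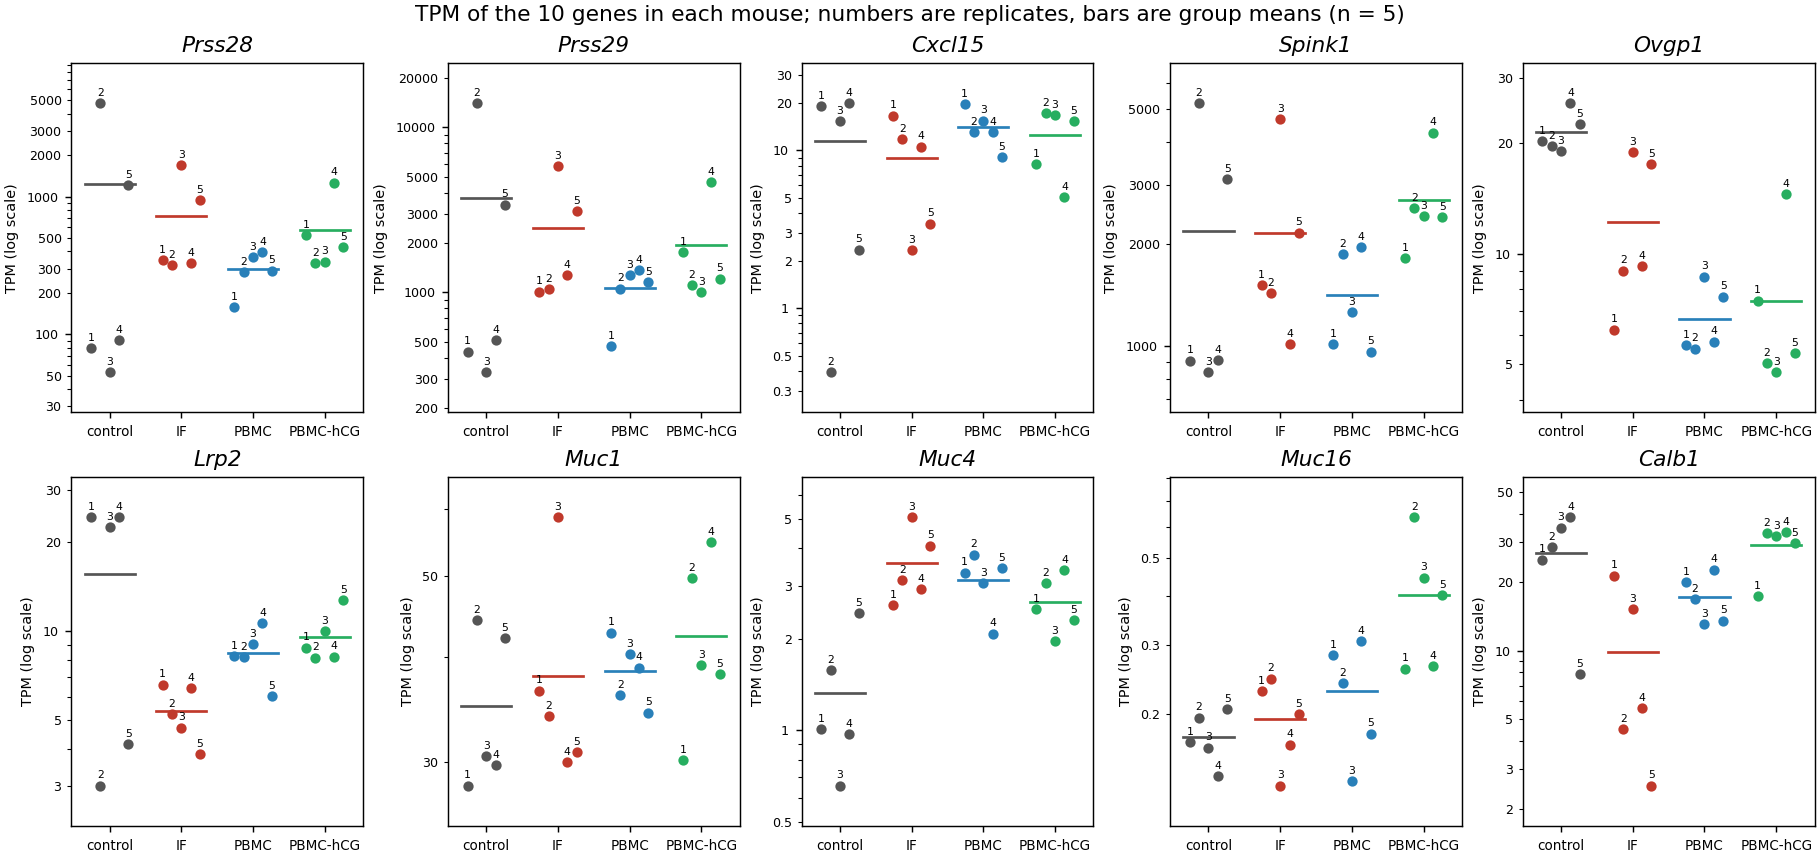
TPM on a log scale (vertical axes) of each of the 10 genes in the 4 groups (horizontal axes), with 1 point per mouse and its replicate number. Bars lie at the arithmetic mean TPM of a group, not at its mean log2 value. Control replicates 2 and 5 sit far above the other controls in Prss28, Prss29 and Spink1 and far below them in Cxcl15 and Lrp2, and all 5 control mice sit above the PBMC and PBMC-hCG mice in Ovgp1.

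The plot of single-mouse levels shows in one view the split of the control mice and the genes whose groups separated. Ovgp1 (gene 12659, chr3:105973802-105987423), the oviductal glycoprotein that binds gametes and embryos, was lower in all 3 groups given RU486 than in the control group. Its level was 20.2, 19.6, 19.0, 25.6 and 22.5 TPM in control mice, the narrowest spread for its level among the 4 groups. IF mice had 6.22, 8.999, 18.9, 9.25 and 17.5 TPM, PBMC mice 5.65, 5.52, 8.66, 5.76 and 7.64 TPM, and PBMC-hCG mice 7.46, 5.04, 4.76, 14.5 and 5.37 TPM. All mice given RU486 lay below all control mice, with IF replicates 3 and 5 just under the lowest control. Group means were 21.4 ± 2.71 TPM (SD, n = 5) in control, 12.2 ± 5.66 in IF, 6.65 ± 1.42 in PBMC and 7.43 ± 4.11 in PBMC-hCG mice.

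In limma's test Ovgp1 fell by 0.93 on the log2 scale in IF (SE 0.30, adjusted p = 0.0314), by 1.69 in PBMC (SE 0.30, adjusted p = 0.000532) and by 1.64 in PBMC-hCG mice (SE 0.30, adjusted p = 0.000465), each against control. The call in IF was lost without control replicate 4 or 5 or IF replicate 1, 2 or 4, with adjusted p between 0.0556 and 0.0886. It was also lost with no filter on low values (adjusted p = 0.0519) and with only the groups compared in the fit (adjusted p = 0.0515). Against IF, Ovgp1 differed by -0.76 in PBMC (interval -1.38 to -0.14, adjusted p = 0.701) and by -0.71 in PBMC-hCG mice (interval -1.34 to -0.09, adjusted p = 0.0988). Neither passed the adjustment, and without IF replicate 1 the latter was called at -0.92 (adjusted p = 0.0455).

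Lrp2 (gene 14725, chr2:69424335-69586029, minus strand) encodes megalin, a receptor that takes up proteins and vitamin carriers from the lumen. It stood at 24.3, 3.01, 22.4, 24.3 and 4.16 TPM in the controls and at 6.596, 5.25, 4.73, 6.44 and 3.85 TPM in the IF group. PBMC mice had 8.21, 8.19, 9.07, 10.6 and 6.02 TPM, and PBMC-hCG mice 8.80, 8.15, 10.01, 8.20 and 12.8 TPM. Control replicates 1, 3 and 4 were above every mouse given RU486, while replicates 2 and 5 lay with the lowest IF mice. With all mice, Lrp2 differed by -1.06 in IF against control (SE 0.46, interval -2.03 to -0.09) and was not called (adjusted p = 0.110 in limma's test). It was called at -1.53 without control replicate 2 (adjusted p = 0.00603) and at -1.41 without control replicate 5 (adjusted p = 0.0294). All 5 PBMC-hCG mice lay above all IF mice, yet the difference of 0.83 was not called (SE 0.46, interval -0.14 to 1.80, adjusted p = 0.207), except with only the groups compared in the fit (adjusted p = 0.0390).

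Of the 3 membrane mucins, Muc4 and Muc16 were called in some comparisons and Muc1 in none. Muc1 (gene 17829, chr3:89229056-89233381), which covers the apical surface of luminal and glandular cells, varied least of the 10 genes, with its highest level 2.09 times its lowest. Its values were 28.1, 44.3, 30.5, 29.8 and 42.1 TPM in control, 36.5, 34.0, 58.7, 29.998 and 30.8 TPM in IF, 42.8, 36.1, 40.3, 38.9 and 34.3 TPM in PBMC, and 30.1, 49.6, 39.1, 54.8 and 38.2 TPM in PBMC-hCG mice. Between IF and control the interval of its difference ran from -0.28 to 0.48.

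Muc4 (gene 140474, chr16:32735886-32782391), a mucin that also binds ERBB2, rose with RU486. It stood at 1.01, 1.59, 0.657, 0.973 and 2.44 TPM in the controls and at 2.59, 3.13, 5.07, 2.93 and 4.08 TPM in the IF group. PBMC mice had 3.32, 3.81, 3.07, 2.09 and 3.43 TPM, and PBMC-hCG mice 2.51, 3.06, 1.97, 3.39 and 2.32 TPM. All IF mice were above all controls, whereas control replicate 5 overlapped the lowest PBMC and PBMC-hCG mice. The log2 difference from control was 1.44 in IF (SE 0.27, adjusted p = 0.000816 in limma's test), 1.28 in PBMC (SE 0.27, adjusted p = 0.00240) and 1.04 in PBMC-hCG mice (SE 0.27, adjusted p = 0.00674). Against IF, Muc4 differed by -0.16 in PBMC and by -0.40 in PBMC-hCG mice, with intervals of -0.73 to 0.41 and -0.96 to 0.17, and neither was called.

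Muc16 (gene 73732, chr9:18495445-18674821, minus strand), a very large mucin of the apical surface, was at low levels throughout. It stood at 0.169, 0.196, 0.164, 0.139 and 0.206 TPM in control, 0.229, 0.246, 0.131, 0.167 and 0.200 TPM in IF, 0.283, 0.240, 0.135, 0.307 and 0.178 TPM in PBMC, and 0.261, 0.637, 0.446, 0.265 and 0.403 TPM in PBMC-hCG mice. All PBMC-hCG mice were above all IF and all control mice, while 2 PBMC mice reached above the lowest PBMC-hCG mice. In limma's test Muc16 rose in PBMC-hCG mice by 0.73 against IF (SE 0.19, adjusted p = 0.0309) and by 0.82 against control (SE 0.19, adjusted p = 0.00356). Its difference of 0.59 from PBMC (interval 0.18 to 0.99, adjusted p = 0.271) was not called, and with no filter on low values the call against IF was lost (adjusted p = 0.0567). The pseudocount of 0.1 is close to these levels and draws the differences toward 0.

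Calb1 (gene 12307, chr4:15881264-15906709) encodes calbindin, a cytosolic calcium buffer, and was the only one of the 10 genes called lower in IF against control and higher in PBMC-hCG against IF. Control mice had 25.2, 28.6, 34.9, 38.9 and 7.89 TPM, and IF mice 21.4, 4.51, 15.2, 5.58 and 2.53 TPM. PBMC mice had 20.002, 16.9, 13.1, 22.8 and 13.6 TPM, and PBMC-hCG mice 17.4, 33.1, 31.9, 33.4 and 29.8 TPM. IF replicates 2, 4 and 5 were the lowest of all mice, with control replicate 5 next, so the groups overlapped in both comparisons. Group means were 27.1 ± 12.0 TPM (SD, n = 5) in control, 9.86 ± 8.11 in IF, 17.3 ± 4.14 in PBMC and 29.1 ± 6.71 in PBMC-hCG mice.

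Calb1 fell by 1.69 on the log2 scale in IF against control (SE 0.48, adjusted p = 0.0165 in limma's test) and rose by 1.94 in PBMC-hCG against IF (SE 0.48, adjusted p = 0.0287). Against control, the PBMC-hCG level differed by 0.25, with an interval of -0.76 to 1.25. In PBMC against IF the difference was 1.19 (interval 0.19 to 2.20, adjusted p = 0.701), and between PBMC-hCG and PBMC it was 0.74 (interval -0.26 to 1.75, adjusted p = 0.408), so neither was called. The fall in IF was not called without IF replicate 5, at -1.31 (adjusted p = 0.0518), nor with only the groups compared in the fit (adjusted p = 0.0907). The calls of Calb1 and Muc16 in PBMC-hCG against IF were both lost without any 1 of IF replicates 2, 4 and 5 or PBMC-hCG replicates 2, 3, 4 and 5, refits in which 0 to 34 of all tested genes were called, with adjusted p between 0.0545 and 0.0999 and log2 differences of 1.56 to 1.92 for Calb1 and 0.58 to 0.83 for Muc16.

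**Figure D2:**
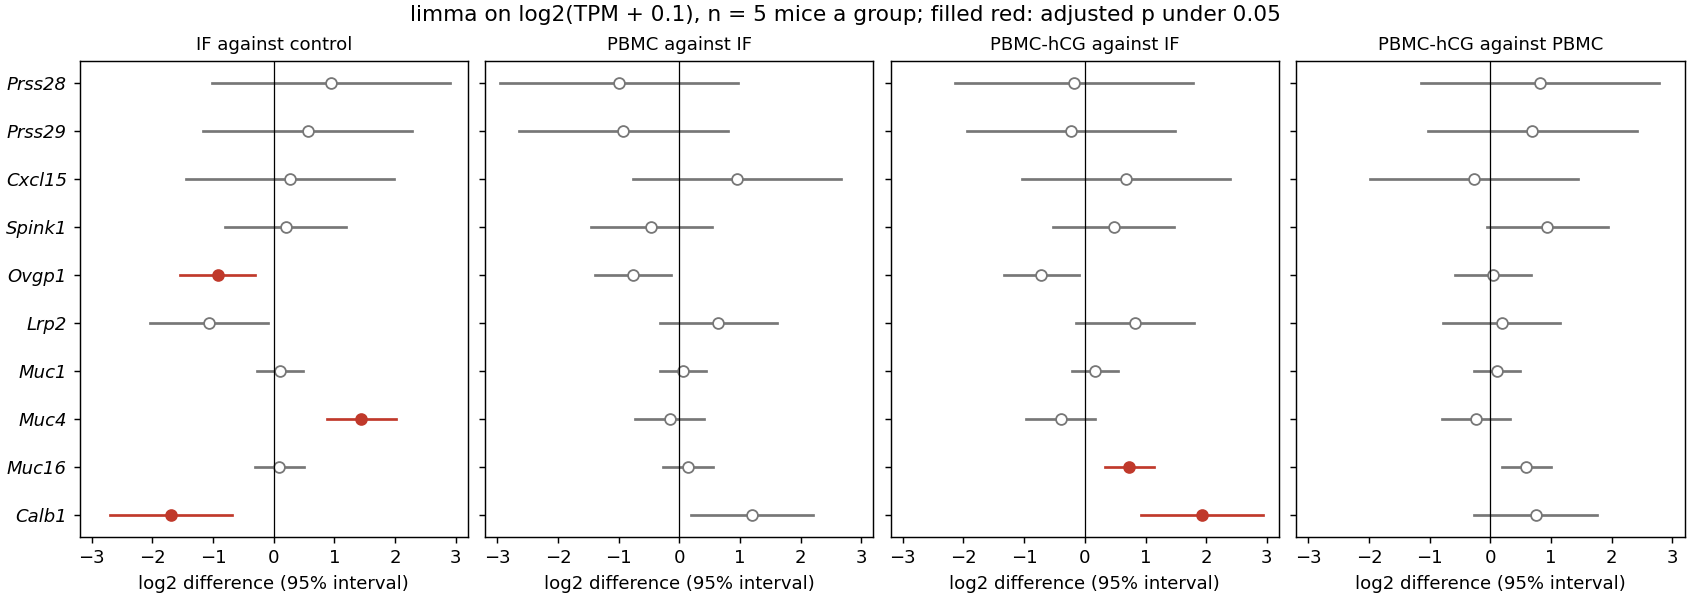
Difference in mean log2(TPM + 0.1) between groups (horizontal axes) for the 10 genes (vertical axis) in 4 comparisons, with points at the difference, lines for the 95% interval, and filled red points where the adjusted p is under 0.05. In IF against control Muc4 lies at 1.44, Ovgp1 at -0.93 and Calb1 at -1.69, in PBMC-hCG against IF Calb1 lies at 1.94 and Muc16 at 0.73, and no gene is filled in the other 2 panels.

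Read by comparison, as in the plot of log2 differences, 3 of the 10 genes were called in IF against control, 1 higher and 2 lower, and the groups of 2 did not overlap. Over all tested genes, 21.9% were called (13.4% higher and 8.53% lower) and 12.8% did not overlap, so the share of the 10 was near that of the transcriptome. With median-of-ratios scaling, 50.5% of all calls in this comparison were higher, against 61.1% with TPM as deposited, and in PBMC-hCG against IF 44.6% against 55.9%, while no call of the 10 changed. The median difference of the 10 was 0.15, and that of all genes was 0.02. In PBMC against IF, limma called 0 of the 10 and 0% of all genes, and Ovgp1 and Calb1 were the 2 genes with an unadjusted p under 0.05, as were 6.79% of all genes. In PBMC-hCG against IF, 2 were called, both higher, and 2 did not overlap, against 13.6% called (7.61% higher) and 7.24% not overlapping among all genes. In PBMC-hCG against PBMC, 0 of the 10 and 0.0107% of all genes were called in limma's test, and 1 of the 10, Muc16, and 16.2% of all genes had an unadjusted p under 0.05. Against control, 2 were called in PBMC mice (19.5% of all genes) and 3 in PBMC-hCG mice (31.8% of all genes). By the study's criteria, at least 2-fold and an unadjusted p under 0.05, 3 of the 10 met them in IF against control (4.03% of all genes), 1 in PBMC against IF (0.438%) and 1 in PBMC-hCG against IF (2.31%), Calb1 in each. Comparisons with a group in common share its 5 mice and are not independent.

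Some of the glandular products varied together, or in opposite directions, between mice of a group. Each gene was centred on its group mean, and Pearson's r and Spearman's rho were computed for the 45 pairs of genes, with 100000 permutations of mice within groups and p-values adjusted over the pairs. Over all 20 mice 25 pairs passed by Pearson's r, 14 positive and 11 negative. Pairs of other genes were not tested in this way, so the number passing cannot show whether such relations are particular to the glandular products. As the control mice fell apart into 3 and 2, the 15 mice given RU486 were also taken alone, an alternative chosen after seeing the data, and 14 pairs passed, 8 positive and 6 negative. Prss28 and Prss29 had r = 0.99 (rho = 0.98, permutation adjusted p = 0.000225) over 20 mice and r = 0.99 over the 15. The 2 farthest mice in Prss28 left out, r was 0.98 over 20 mice and 0.97 over the 15.

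Cxcl15 ran opposite to both proteases in each set of mice. Its r with Prss28 was -0.96 over 20 mice (rho = -0.94, permutation adjusted p = 0.000450) and -0.91 over the 15 (rho = -0.87, permutation adjusted p = 0.00459), and -0.94 and -0.83 with the 2 farthest mice in Prss28 left out. In 3 of 4 groups the mouse highest in Prss28 was the lowest in Cxcl15. Spink1 had r = 0.91 with Prss28 over 20 mice (permutation adjusted p = 0.00169) and 0.82 over the 15 (permutation adjusted p = 0.0201). By Spearman's rho this pair passed over 20 mice (0.85, permutation adjusted p = 0.00862) but not over the 15 (0.66, permutation adjusted p = 0.0709). Over the 15, r was 0.58 once IF replicate 3 and PBMC-hCG replicate 4 were left out, so that relation rested in part on those 2 mice.

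**Figure D3:**
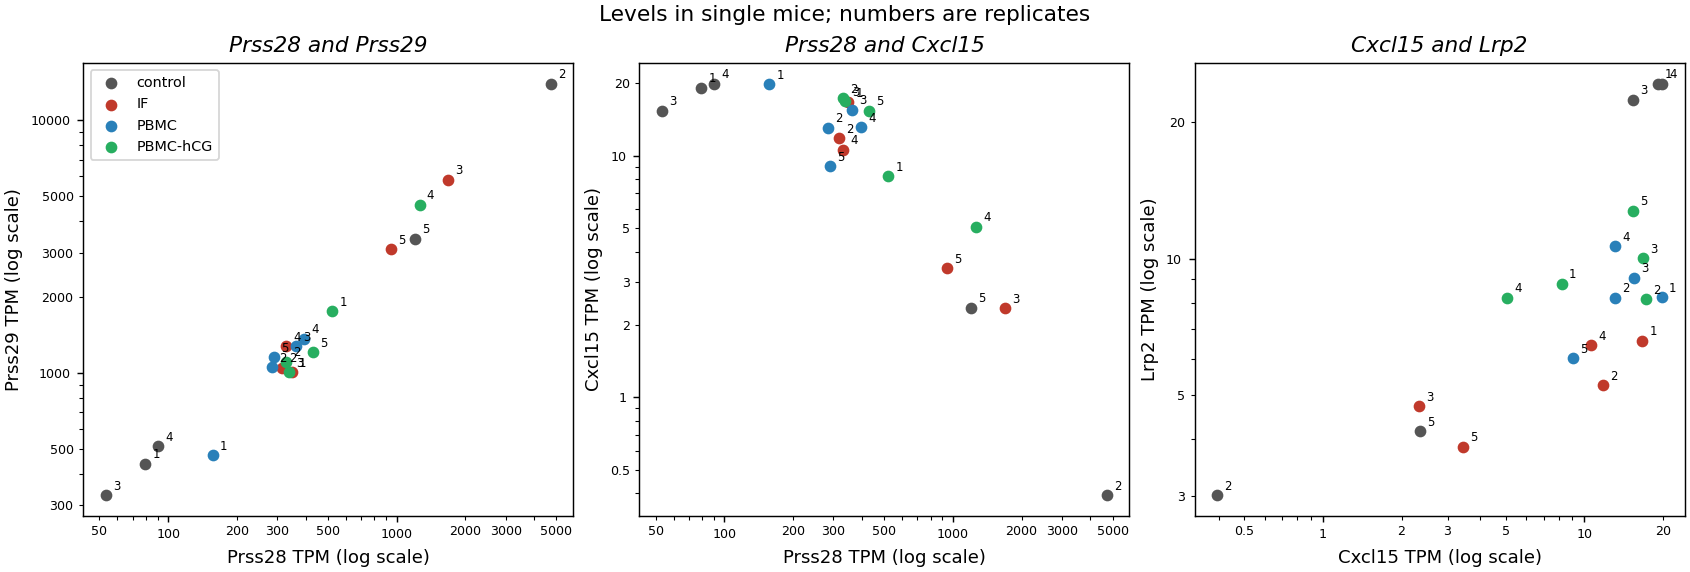
TPM on log scales of Prss29 against Prss28, Cxcl15 against Prss28 and Lrp2 against Cxcl15, with 1 point per mouse coloured by group and labelled with its replicate number. The first pair rises together across all 20 mice, the second runs in opposite directions down to control replicate 2 (Prss28 4739 TPM, Cxcl15 0.394 TPM), and in the third control replicates 1, 3 and 4 lie apart at the top.

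In the scatter of single mice, control replicates 1, 3 and 4 were the highest in Lrp2 and among the highest in Cxcl15. The r of this pair was 0.88 over 20 mice (rho = 0.80, permutation adjusted p = 0.00375) and 0.62 over the 15 (rho = 0.54, permutation adjusted p = 0.0712), and r of Lrp2 with Prss28 was -0.88 over 20 mice and -0.37 over the 15. Ovgp1 gave the reverse case, since its r with Cxcl15 was -0.44 over 20 mice and -0.91 over the 15 (rho = -0.89, permutation adjusted p = 0.00459), and with Prss28 0.37 over 20 mice and 0.87 over the 15 (rho = 0.78, permutation adjusted p = 0.00975). These differences between the sets were not tested, and the 15 are among the 20. By Pearson's r, Calb1 passed with none of the other 9 genes in either set, and by Spearman's rho it passed with Muc1 over the 15 mice (rho = 0.76, permutation adjusted p = 0.0118, r = 0.61, and r = 0.53 with the 2 farthest mice in Muc1 left out).

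**Figure D4:**
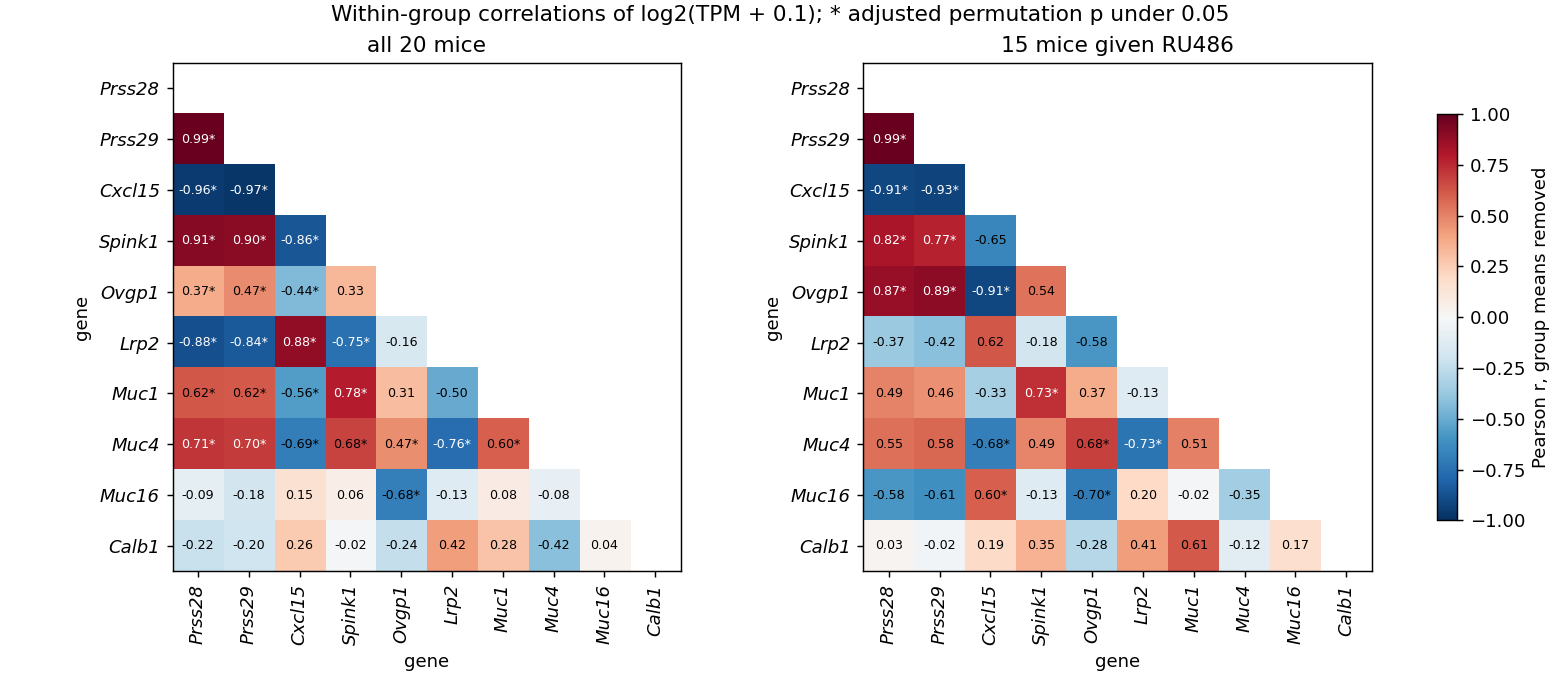
Pearson's r between the 10 genes after removal of group means (colour and number), over all 20 mice at left and the 15 mice given RU486 at right, with an asterisk where the permutation adjusted p is under 0.05. Prss28 and Prss29 reach 0.99 in both panels, Cxcl15 with Prss28 -0.96 and -0.91, and the pairs of Lrp2 with the proteases weaken in the right panel.

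In the heat map of r, no pair with Calb1 carries an asterisk. The genes that direct gland formation and identity were read from a list of 14, all tested. In IF against control 7 of them were called, 5 higher and 2 lower, against 21.9% of all tested genes (13.4% higher and 8.53% lower). Foxa2 stood at 15.4, 9.03, 13.5, 12.4 and 8.72 TPM in the controls and at 7.01, 6.62, 6.44, 4.87 and 6.10 TPM in the IF group, all below the controls (log2 difference -0.89, SE 0.20, adjusted p = 0.00366 in limma's test). Of the controls, replicates 2 and 5 were lowest in Foxa2 as they were in Cxcl15 and Lrp2. The ligand Wnt4 rose by 2.27 (adjusted p = 0.000641), the ligand Wnt7a by 0.90 (adjusted p = 0.000782) and the transcription factor Sox9 by 0.98 (adjusted p = 0.000364). In PBMC-hCG against IF 3 were called in limma's test, against 13.6% of all genes. Wnt4 was lower (log2 difference -1.39, adjusted p = 0.0392), Wnt7b lower at -1.87 (adjusted p = 0.0483) and the receptor Fgfr2 higher at 0.52 (adjusted p = 0.0258). In PBMC against IF limma called 0 of the 14, of which 3 had an unadjusted p under 0.05, as had 6.79% of all genes.

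Other secreted products of the epithelium formed a list of 11, of which 10 were tested. Between IF and control 1 was called (21.9% of all genes), the protease inhibitor Slpi (log2 difference -0.69, adjusted p = 0.0135 in limma's test). In PBMC-hCG against IF 3 were called in limma's test (13.6% of all genes). Slpi at 0.75 (adjusted p = 0.0292) and complement C3 at 0.61 (adjusted p = 0.0307) were higher, and Lcn2, an iron-scavenging lipocalin, was lower at -1.30 (adjusted p = 0.0417). The calls of these 3 genes and of Wnt4, Wnt7b and Fgfr2 in PBMC-hCG against IF were each lost without any 1 of the same 7 mice as those of Calb1 and Muc16, with adjusted p up to 0.144, and that of Wnt7b was lost in 14 of the 20 refits. In PBMC against IF limma called 0, and 0 had an unadjusted p under 0.05. Lif stood at 22.2, 0.976, 13.8, 19.3 and 3.08 TPM in control replicates 1 to 5, with replicates 2 and 5 the lowest. It ranged from 2.30 to 6.94 TPM in IF mice, and its difference of -0.62 from control was not called (adjusted p = 0.555 in limma's test). In PBMC-hCG mice Lif ranged from 0.622 to 3.31 TPM. There it was called lower than in control (log2 difference -1.95, adjusted p = 0.0304 in limma's test), a call lost in 6 of 20 refits with 1 mouse left out. Of the 13 epithelial markers, 7 were called higher and 2 lower in IF than in control mice, against 13.4% and 8.53% of all tested genes. The part of these markers in the differences of the 10 genes was not tested.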

How the data were processed

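Polyadenylated RNA of 20 uteri was sequenced from stranded mRNA libraries. The authors deposited TPM values per gene. Per the labels and the paper's methods, reads were trimmed with Trimmomatic, mapped to mm10 with HISAT2 and assembled with StringTie (versions not given in the sources used here). Groups and replicate numbers were taken from the labels, doses and times from the methods. TPM values keep no depth, and the study's count-based test was not used here.

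The 10 members and all gene lists were chosen with earlier results of these data known. Besides the members, the genes named were Foxa2, in each list at most 4 called in the comparison by size of difference, and for each member the 3 genes with a mean of at least 1 TPM and the highest r with it, some of which are not reported here. Lif, Calb2 and markers listed at 0 were added after their values were seen. Values were compared as log2(TPM + 0.1) for the 18706 genes above 0 TPM in all 20 libraries, with limma 3.58.1 (variance trend, R 4.3.3) in 6 comparisons of 5 against 5 mice, with Benjamini-Hochberg adjustment over all genes of a comparison. Tests were two-sided. Mice, 1 library each, were the replicates. Nothing in the labels named a batch, so no comparison could be made within batches. Correlations were tested in Python 3.11.15 with SciPy 1.17.1 and NumPy 2.4.6, figures drawn with matplotlib 3.10.9, and promoters aligned with Biopython 1.88. Replicate numbers gave no sign of pairing between mice of different groups. Of pairs with the same number, 8 of 30 had deviations correlated above 0.1 (median r -0.010). Of pairs with different numbers, 31 of 120 did (median r 0.009).

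The fit was tested on simulated data for IF against control over 18706 genes. It recovered 73 of 93 genes changed by a log2 difference of 1 and 101 of 107 changed by 2, with 11 false calls. The simulated noise was independent between genes and of equal spread in all mice, with no outlying library. These figures therefore need not hold for the deposited values. Alternatives were other pseudocounts, filters, scalings and fits, the study's criteria (at least 2-fold and an unadjusted p under 0.05), and each mouse left out in turn.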

Additional observations from a re-analysis of the deposited data

Results flagged for a closer look

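In 3 of 40 groups of 5 mice, 1 mouse lay far from the rest by Dixon's criterion on log2 values, which chance meets in about 1 in 20 groups. Prss29 in PBMC replicate 1 was 474 TPM, against 1054 to 1372 TPM in the other PBMC mice. Calb1 in control replicate 5 was 7.89 TPM, against 25.2 to 38.9 TPM in the other controls. Calb1 in PBMC-hCG replicate 1 was 17.4 TPM, against 29.8 to 33.4 TPM in the other mice of that group.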

How the results depend on the processing

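Other pseudocounts, quantile normalization, median-of-ratios scaling, rescaling without the 50 most abundant genes and a fit without a variance trend kept the count of the 10 genes called within 1.5 times in all 6 comparisons, and every one of the 60 differences its direction and side of the threshold. In PBMC-hCG against IF, 1 gene was called, not 2, with no filter on low values, with a mean of at least 1 TPM (which leaves Muc16 out) and by the study's criteria. Of all genes, 812 of 30695 were called there with no filter and 2707 of 16113 with a mean of at least 1 TPM. With the filter used here 2544 of 18706 were called. Between IF and control 1 was called, not 3, with only the groups compared in the fit, where Ovgp1 (adjusted p = 0.0515) and Calb1 (0.0907) were lost. Of all 18706 genes, 2473 were called in that fit, against 4104 with all 4 groups in the fit. By the study's criteria 1, not 0, was called in PBMC against IF, and in IF against control again 3, with Lrp2 in the place of Ovgp1. Correlated pairs numbered 14 over the 15 mice given RU486, not 25. With the replicate number as a block in the fit, 3, 0 and 2 genes were called in IF against control, PBMC against IF and PBMC-hCG against IF. Of all 18706 genes that fit called 4153, 0 and 3215, and the block changed no call of the 10 genes. The cause of these changes was not tested.

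With 1 mouse left out at a time, the number called ranged from 2 to 4 in IF against control, 0 to 3 in PBMC-hCG against IF, 2 to 2 in PBMC against control and 3 to 4 in PBMC-hCG against control, and was 0 in the other comparisons, and correlated pairs ranged from 12 to 26. Differences that changed sign were all uncalled with all mice. In IF against control they ranged from -0.068 to 0.19 for Muc1, from -0.62 to 0.71 for Cxcl15 and from -0.13 to 0.62 for Spink1. In PBMC against IF, Muc1 ranged from -0.014 to 0.23. In PBMC-hCG against IF, Prss28 ranged from -0.51 to 0.22 and Prss29 from -0.61 to 0.18. In PBMC-hCG against PBMC, Ovgp1 ranged from -0.23 to 0.17 and Cxcl15 from -0.42 to 0.018. In PBMC against control, Spink1 ranged from -0.50 to 0.16, Prss28 from -0.66 to 0.95 and Prss29 from -0.85 to 0.50. In PBMC-hCG against control, Calb1 ranged from -0.15 to 0.42, Lrp2 from -0.70 to 0.047 and Prss29 from -0.16 to 1.19. Depth is unknown, so the error of low values such as those of Muc16 cannot be set against counting error.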

Other observations

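Calb2, which encodes calretinin, a calcium-binding relative of calbindin, separated the control mice from all others and was singled out after its values were seen. It stood at 8.50, 6.57, 7.48, 9.79 and 10.9 TPM in control mice, and ranged from 0.158 to 1.35 TPM in IF, from 0.185 to 1.59 TPM in PBMC and from 0 to 1.42 TPM in PBMC-hCG mice. As it was listed at 0 in 1 library it was outside the fit, and unlike Calb1 its level in PBMC-hCG mice lay with the IF mice. Of the 5 genes of epithelial calcium transport, 3 were tested, and S100g, a vitamin D-dependent calcium-binding protein, fell by 0.50 in IF against control (adjusted p = 0.0225 in limma's test), a call lost without IF replicate 2, 4 or 5 (adjusted p up to 0.0575). Against control S100g was also called lower in PBMC (-0.75, adjusted p = 0.00164 in limma's test) and PBMC-hCG mice (-0.72, adjusted p = 0.00156). Both of these calls held in 20 of 20 refits with 1 mouse left out.

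No gene was called in limma's test among the other mucins (2 tested of 10 listed), the tryptase genes near Prss28 and Prss29 (3 tested of 6) and the endocytic partners of Lrp2 (4 tested of 4) in any of the 6 comparisons. At an unadjusted p under 0.05, the mucins gave 0 in each comparison, the tryptase genes 0 or 1, and the partners of Lrp2 between 0 and 2.

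Over the 20 mice and 15771 genes, the genes whose log2 values were most alike to each member by Pearson's r were taken as a description. They were Prss29, Tmprss4 and Paox for Prss28 (r = 0.98, 0.93 and 0.91) and Prss28, Tmprss4 and Scgb3a1 for Prss29 (0.98, 0.92 and 0.92). For Cxcl15 they were Fyb, Gm39529 and Rp1 (0.96, 0.96 and 0.95). Those of Spink1 included Prss28 and 5330417C22Rik (0.89 and 0.88). Those of Ovgp1 included Fkbp11 and Dpep1 (0.94 and 0.90), and those of Lrp2 E130008D07Rik and Ly75 (0.97 and 0.94). Muc1 was closest to Ncam1, Rhpn2 and Irak2 (0.86, 0.86 and 0.86), Muc4 to Vtcn1, Myo1d and Palmd (0.94, 0.93 and 0.91), and Muc16 to Stk26, Nkain4 and Msln (0.87, 0.85 and 0.83). Calb1 was closest to Gstm1, Efemp1 and Gsta4 (0.94, 0.94 and 0.93). These mice share group differences and libraries, so the values hold both.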
